A study of Mus musculus with 12 samples.

Results

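The difference between the effects of a Grin1 exon 5 knock-in and a Grin1 exon 5 knockout on cortical RNA was taken gene by gene, as the log2 change in the knock-in line minus the log2 change in the knockout line. All 12 libraries of the series enter this contrast, and 17441 of the 41388 genes in the count table had enough reads to be tested. Genes of opposite direction were counted where the 3 mutant libraries of each line lay wholly on one side of their 3 wild types, and on the other side in the other line. By that rule 111 of the 17441 genes lay in opposite directions, and 151 lay in the same direction in both lines.

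Polyadenylated RNA of adult C57Bl/6 mouse cortex was sequenced, with 3 libraries in each of 4 groups. KI denotes the knock-in (Grin1-exon5+/+, in which exon 5 is constitutive), and KI_WT the wild types of that line. KO denotes the knockout (Grin1-exon5-/-, in which exon 5 is removed), and KO_WT the wild types of the knockout line. Each library carries its own animal number, and the labels name no treatment. Exon 5 is altered in the whole animal in both lines, and a count per gene does not show whether the exon was present, so the genotypes were not checked here.

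Grin1 encodes GluN1, the obligatory subunit of NMDA receptors, the glutamate-gated and voltage-dependent cation channels on which many forms of synaptic plasticity depend. Alternative splicing of exon 5 decides whether the extracellular amino-terminal domain carries a short, positively charged insert. Its inclusion is known to alter the sensitivity of the receptor to protons and polyamines and to speed its deactivation, and it differs between brain regions.

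The segment on which the lines differ is shown as the GENCODE annotation of GRCm38 gives it. It lies at chr2:25311343-25311405 on the minus strand, spans 63 bp or 21 codons, and is present in 4 of the 8 annotated coding transcripts of Grin1 (gene at chr2:25291181-25319187). It is exon number 4 of the transcript it was read from, and Grin1 has another annotated cassette, of 111 bp. The match of the 63 bp segment to exon 5 rests on its length and its place as a cassette.
Grin1 cassette exon: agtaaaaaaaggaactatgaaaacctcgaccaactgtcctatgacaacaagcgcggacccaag

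The libraries were of even depth, with 31790970 to 36514024 counts and 21927 to 22809 genes detected. All 9 upper-layer and 12 deep-layer markers of cortical neurons were expressed highly enough to be tested. Other tissue was unevenly present: olfactory bulb markers were highest in KI_WT 3, KO 1 and KO_WT 3, and choroid plexus markers were lowest in KI_WT 3, KO_WT 1 and KO_WT 3. Xist, the RNA of the inactive X chromosome, was at 570.3 to 856 CPM (read counts relative to library size, TMM-scaled) in KI 2, KI 3, KI_WT 1, KO 1 and KO 2 and at most 0.611 in the other libraries. The sex of the animals was not given in the labels. Animal numbers under 200 occurred in the knockout line alone (KO 1, KO_WT 2 and KO_WT 3). Relative to the other libraries KO 1 had the most RNA of short genes and the least of long genes.

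One gene separated the lines by the test across all genes, and its point estimates had the same sign in both. Tpp1 is the gene of a lysosomal enzyme that cleaves tripeptides from protein ends, and its deficiency underlies a childhood form of neuronal ceroid lipofuscinosis. Its level was 48.3, 46.1 and 48.6 CPM in KO 1 to KO 3, against 83.4, 87.2 and 88.2 in KO_WT 1 to KO_WT 3. In the knock-in line it was 80.0, 75.6 and 81.6 CPM in KI, against 84.4, 78.3 and 84.1 in KI_WT. The 3 KO libraries were thus the lowest of all 12, and the ranges of KI and KI_WT overlapped. Tpp1 fell by 0.86 on the log2 scale in KO (adjusted p = 1.71e-04) and was at -0.06 in KI (adjusted p = 0.873; quasi-likelihood test of edgeR, Benjamini-Hochberg adjustment). The difference of effects was 0.80 (SE 0.09), its 95% interval ran from 0.61 to 0.99, and its adjusted p over 17441 genes was 0.0155 in the same fit. The gene lies at chr7:105744811-105752235 on the minus strand.

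Tpp1 was the 1 gene of 17441 past an adjusted p of 0.05 in the difference of effects (0.00573% of those tested), as it was in KO against KO_WT (0.00573%). In KI against KI_WT 0 genes passed, the smallest adjusted p of the edgeR fit being 0.705, and 1214 genes had an unadjusted p under 0.05. The next adjusted p in the difference of effects was 0.918. The call of Tpp1 was lost in 13 of 26 alternatives: its adjusted p ranged from 0.0504 to 0.114 without KI 1, KI 3, KI_WT 1, KI_WT 2, KO 3, KO_WT 2 or KO_WT 3, each left out alone. It was 0.281 with terms for regional markers, 0.0800 with a term for Y-linked genes and 0.0989 with a term for short over long genes. With animal numbers over 300 only, where KO_WT 1 was the sole KO_WT library, the difference was 0.75. The size of the difference stayed between 0.75 and 0.83 under all 26 alternatives. DESeq2 called 5 genes in the difference of effects: Tpp1 (adjusted p = 4.89e-14) and, each at an adjusted p of 0.0201, Lypd1, Ugt2a1, Atp5g2 and Apoo. Ugt2a1, an olfactory glucuronosyltransferase, was at 2.63 CPM in KI_WT 3 and 4.14 in KO 1 and at 0.397 or less in the other 10 libraries, and its fitted fold change cannot be read as a size.

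Because Tpp1 was the called gene, the bases around its start site are shown from the RefSeq promoter table (GRCm38.p6, chr7:105752207-105752236, minus strand). Capitals mark matches, on either strand, to the M-box TCATGTGA, a sequence bound by the MiT family of transcription factors that control many lysosomal genes. The motif was chosen after the values were seen.
Tpp1 start region: catgcTCATGTGActtaTCACATGActaca
The first match begins 5 bases into the transcript. An M-box stood in the table's window around the start site of 1.147% of the 27025 genes with a promoter there and of 0.917% of the tested genes, and 5 genes of the 27025, Tpp1 among them, had at least 2 matches in 1 promoter. The motif was chosen with Tpp1 already called, so its place among these genes is a description and no support is drawn from it. The E-box palindrome TCACGTGA was searched as well and had no match in the Tpp1 promoter. A match is a description of the letters and does not show a bound site.

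**Figure D1:**
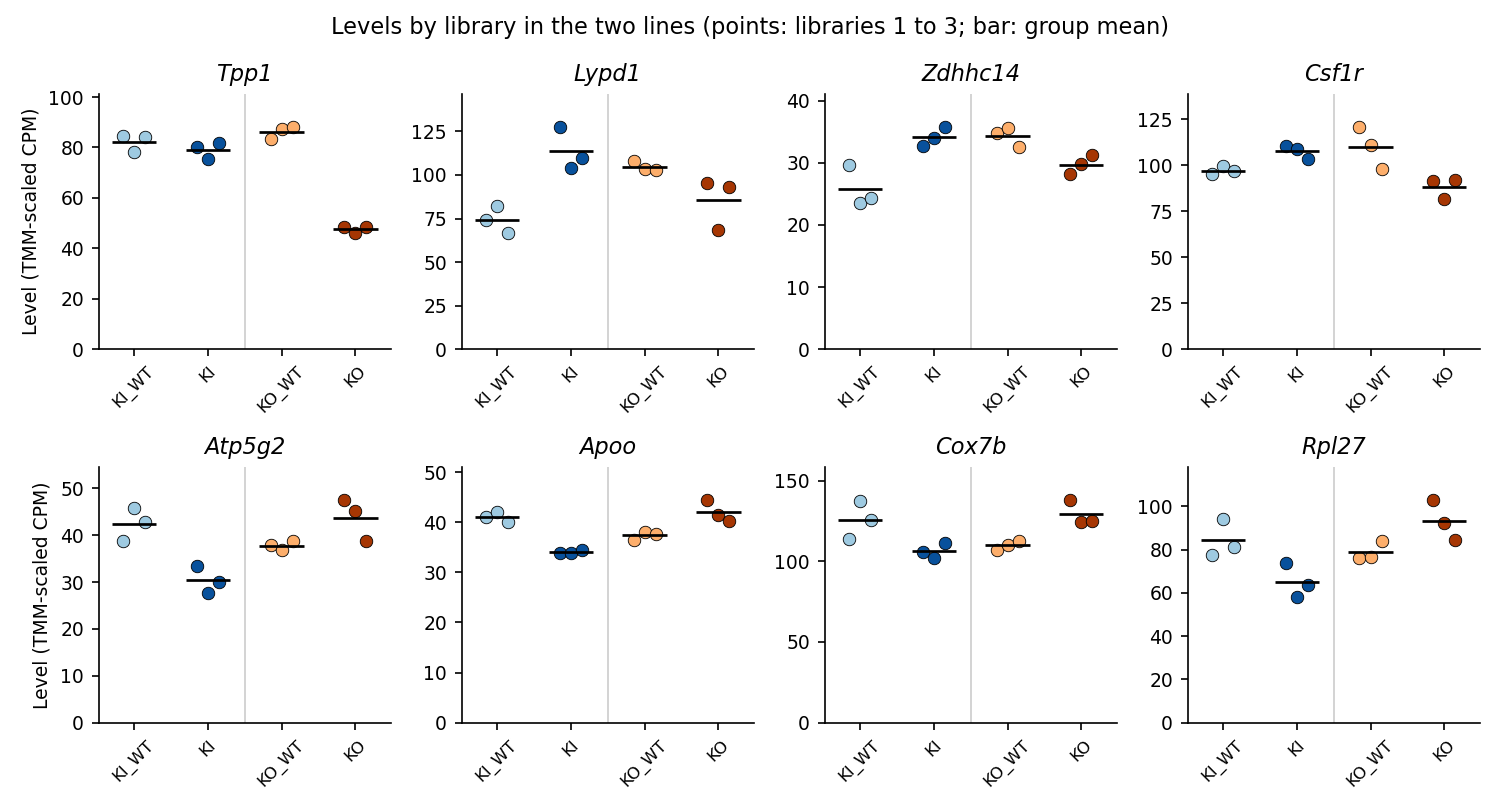
Levels in TMM-scaled CPM (y axis, from 0) of 8 genes in each library (points) of KI_WT, KI, KO_WT and KO, with the group mean as a bar. Tpp1 is low in KO alone, at 46.1 to 48.6 CPM. In the other 7 genes each mutant group lies on one side of its own wild types, in opposite directions in the 2 lines, and the 2 wild-type groups also sit at different levels in several panels.

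With all 12 libraries, opposite directions were less numerous than shared ones. KI and its wild types were apart, with no overlap of libraries, in 12.2% of genes, and KO and its wild types in 12.4%. Were labels unrelated to levels, groups of this size would be apart with a probability of 0.1, the smallest exact p they can give. The shares of 12.2% and 12.4% lie little above that. Both held, in opposite directions, for 111 genes (0.636%), and in the same direction for 151 genes (0.866%). The share that unrelated separations in the lines would give was not computed, so neither count can be read as an excess, and single genes of the 111 may be apart by chance. Of the 111, 43 (0.247%) were higher in KI and lower in KO, and 68 (0.39%) were lower in KI and higher in KO. Of the 151, 98 were higher in both mutants and 53 were lower in both. Among the 111, 96 had a mean level of at least 1 CPM and 102 had an unadjusted p under 0.05 in the difference of effects, which their choice makes likely and which is given as a description. Of the 99 genes at an unadjusted p under 0.05 in both lines, 28 had opposite signs (10 higher in KI, 18 higher in KO) and 71 the same sign. Without the 4 libraries highest in olfactory bulb markers, where groups hold fewer libraries, the order turned, with 1037 opposite and 925 shared. On RPKM values 78 genes were opposite and 236 shared. These values carry no TMM scaling. With limma on log2(RPKM + 0.1) the median effect over all genes was 0.05 in KI and 0.05 in KO. In the main fit it was -0.01 and 0.01. The part of scaling in the RPKM counts was not tested. Over all 17441 genes the point estimates had opposite signs for 7729 (44.3%).

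The contrast itself is less precise than either line alone, since it sums the error of 4 groups. The median SE of the difference was 0.194 log2 units, against 0.138 for either effect. An unadjusted p under 0.05 in the difference of effects was found for 918 genes (5.26%). In 2.05% of all genes it came with a positive difference of effects, and in 3.21%, or 560 genes, with a negative difference. Of the 918, 869 (94.7%) had point estimates of opposite sign, against 44.3% of all genes. A small p in the difference selects genes whose 2 effects lie far apart, so this share follows from the choice and is given as a description. Across genes the 2 effects, which share no library, had a Pearson correlation of 0.118 and a Spearman correlation of 0.140, given as a description since genes are not independent.

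**Figure D2:**
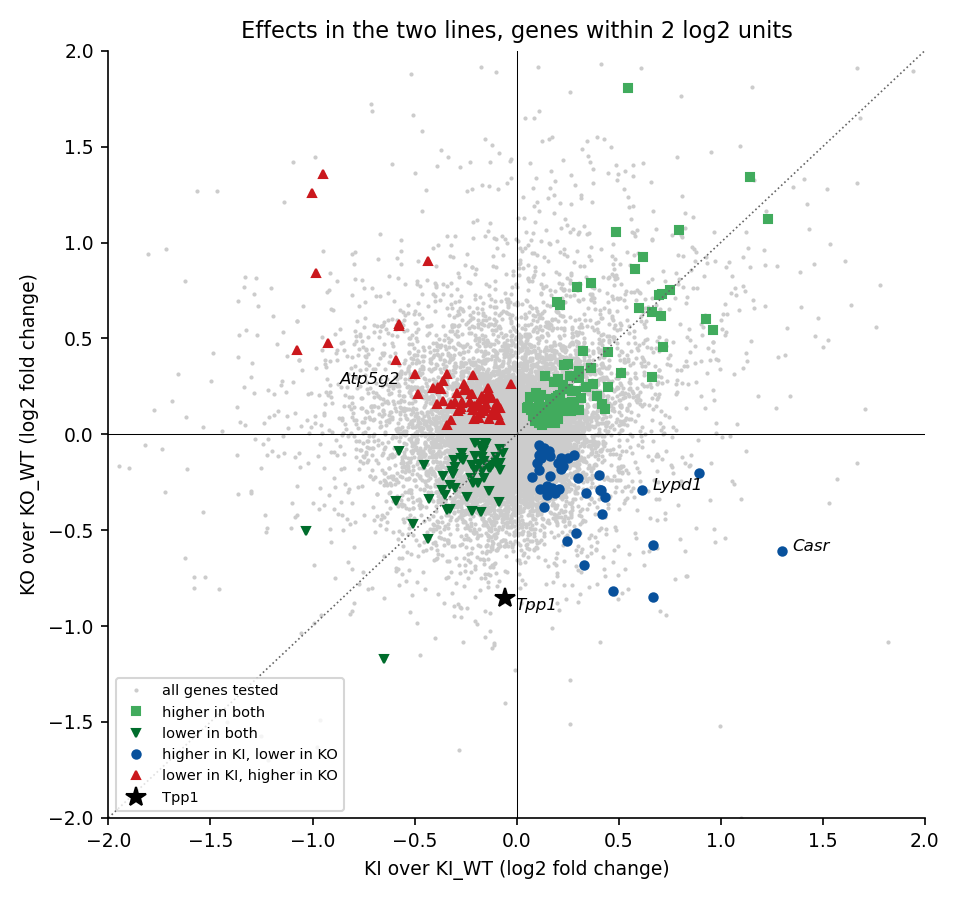
Log2 fold change of KI over KI_WT (x axis) against KO over KO_WT (y axis) for 17383 of 17441 genes, those within the axes. Coloured symbols are genes whose libraries do not overlap in both lines (43 and 68 in opposite directions, 151 in the same direction), the dotted line marks equal effects, and Tpp1 lies on the KO axis at -0.86.

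Among the 43 genes higher in KI and lower in KO, the smallest p in the difference of effects belonged to Lypd1, whose product, of the Ly6 family, modulates nicotinic acetylcholine receptors. Lypd1 was at 128, 104 and 110.0 CPM in the 3 KI libraries and at 74.0, 82.4 and 66.5 in KI_WT. It was at 95.5, 68.2 and 92.8 CPM in KO and at 108, 103 and 103 in KO_WT. The groups were apart in both lines, and the wild types were apart from each other as well, with KI at the level of KO_WT. The difference of effects was 0.91 (SE 0.18), made of 0.61 in KI and -0.29 in KO. Zdhhc14, a palmitoyltransferase, had the same form. It was at 32.8, 34.0 and 35.8 CPM in KI and 29.7, 23.6 and 24.3 in KI_WT, and at 28.1, 29.8 and 31.2 in KO and 34.9, 35.7 and 32.6 in KO_WT. Its difference was 0.61 (SE 0.13), and again KI and KO_WT lay at one level and KI_WT below them.

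Signalling and matrix genes followed in the same set. Rps6ka2, a ribosomal S6 kinase downstream of ERK, was at 74.5, 69.4 and 71.5 CPM in KI against 66.0, 61.6 and 61.4 in KI_WT. In KO it was at 58.1, 56.9 and 64.9 CPM against 81.7, 67.2 and 73.3 in KO_WT, where the gap was the larger (-0.30, against 0.19 in KI). Csf1r, the receptor on which microglia depend for survival, was at 111, 109 and 103 CPM in KI and 95.1, 99.4 and 96.7 in KI_WT. It was at 91.5, 81.5 and 91.8 CPM in KO and 121, 111 and 98.1 in KO_WT, and KO 2 was the lowest of the 12 libraries. Its difference was 0.46 (SE 0.11). Cspg4, the NG2 proteoglycan of oligodendrocyte precursors and pericytes, was at 15.6, 11.4 and 12.4 CPM in KI and 11.3, 11.03 and 8.81 in KI_WT. It was at 8.30, 10.4 and 10.8 CPM in KO and at 12.001, 12.1 and 12.4 in KO_WT, so that KI_WT and KO shared a range. Mmrn2, a matrix glycoprotein of endothelium, was lower in level (5.95 CPM in KI, 4.86 in KI_WT, 4.07 in KO and 5.80 in KO_WT), with a difference of 0.80 (SE 0.23).

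The other named members of this set varied in size and level. Kank1, an adaptor between focal adhesions and actin, had a difference of 0.42 (SE 0.12), and Chst7, a sulfotransferase, one of 0.83 (SE 0.24) at 1.22 to 1.66 CPM in the 4 group means. Tbl2 had a difference of 0.40 (SE 0.12), Rps6kc1 of 0.34 (SE 0.11) and the predicted gene Gm15440 of 0.70 (SE 0.16). The widest difference in the set was in Casr, the calcium-sensing receptor, at 1.91 (SE 0.47), but it was scarce, with 0.622, 0.685 and 0.613 CPM in KI, 0.356, 0.122 and 0.299 in KI_WT, 0.466, 0.538 and 0.497 in KO and 0.945, 0.811 and 0.542 in KO_WT. Bin2 and Tnfrsf1b, both known from microglia and leukocytes, also stood among the 43, at 0.71 (SE 0.26) and 0.40 (SE 0.17). Casr, Bin2 and Tnfrsf1b were singled out after their values were seen. In the quasi-likelihood test of edgeR, after Benjamini-Hochberg adjustment, every gene of the 43 had an adjusted p of at least 0.918 in the difference of effects.

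The 68 genes lower in KI and higher in KO had Atp5g2, Apoo and Cox7b, nuclear genes of mitochondrial proteins, among the members with the smallest p. Atp5g2, which encodes the c subunit of the ATP synthase rotor, was at 33.4, 27.6 and 30.1 CPM in KI and 38.7, 45.9 and 42.8 in KI_WT. It was at 47.4, 45.1 and 38.7 CPM in KO and 37.8, 36.9 and 38.7 in KO_WT. The gap in the knock-in line was clear, while KO 3 lay only just above the highest KO_WT library. Its difference was -0.69 (SE 0.14), with -0.48 in KI and 0.21 in KO. Apoo, a subunit of the complex that organises mitochondrial cristae, was at 33.9, 33.7 and 34.5 CPM in KI and 41.02, 41.9 and 40.0 in KI_WT, and at 44.4, 41.5 and 40.1 in KO and 36.5, 38.04 and 37.7 in KO_WT. The spread within each group was small, and KI was lower than KO_WT too. Its difference was -0.43 (SE 0.09). Cox7b, a subunit of cytochrome c oxidase, was at 106, 102 and 111 CPM in KI, 114, 137 and 126 in KI_WT, 138, 124 and 125 in KO and 107, 110.2 and 112 in KO_WT, with a difference of -0.47 (SE 0.11). In Cox7b the mutant of each line stood near the wild type of the other.

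Further mitochondrial genes among the 68 were singled out after their values were seen, and so no count is drawn from them. They include Cox7a2 (-0.43), Uqcrc2 of complex III (-0.30), Cycs, which encodes cytochrome c (-0.23), the pyruvate carrier gene Mpc1 (-0.39), the ADP/ATP carrier gene Slc25a5 (-0.35) and Fh1, fumarate hydratase (-0.22), each value being the log2 difference of effects. They were picked within the 68, and the 43 of the other direction also hold a mitochondrial gene, Peo1 (0.38, SE 0.13). Mpc1 was at 54.0, 48.0 and 59.7 CPM in KI and 68.6, 73.8 and 62.1 in KI_WT, but at 73.1, 70.2 and 72.4 in KO and 70.0, 69.6 and 69.4 in KO_WT, so that nearly all of its difference lay in the knock-in line. Mrpl41, of the mitochondrial ribosome, was the reverse case. It was at 39.8, 39.7 and 40.4 CPM in KI and 40.4, 41.05 and 40.95 in KI_WT, against 47.5, 43.4 and 42.2 in KO and 36.3, 36.4 and 38.1 in KO_WT. The rule of non-overlap therefore admits genes in which one line differs from its wild types by as little as 0.03 log2 units.

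Genes of other roles in this set had changes of like size. Nop10, a subunit of the particles that guide RNA pseudouridylation, was at 24.8, 19.7 and 25.6 CPM in KI and 28.9, 31.9 and 27.9 in KI_WT, and at 35.3, 34.9 and 30.6 in KO and 24.6, 26.9 and 29.6 in KO_WT. Rpl27, of the large ribosomal subunit, was at 73.7, 58.0 and 63.7 CPM in KI, 77.5, 94.0 and 81.5 in KI_WT, 103, 92.3 and 84.3 in KO and 76.3, 76.7 and 83.9 in KO_WT. In both the highest library was in KO, and KO 3 lay closest to its wild types. The differences were -0.65 (SE 0.16) for Nop10 and -0.61 (SE 0.15) for Rpl27. Cops5, the catalytic subunit of the COP9 signalosome, had a difference of -0.34 (SE 0.09), with 70.5 to 71.9 CPM in KI and 77.0 to 83.7 in KO. The vesicle SNARE gene Vamp7 had one of -0.49 (SE 0.13) and the proteasome gene Psma4 one of -0.31 (SE 0.09). Mtcp1 (-0.81, SE 0.21) and Zfp711 (-0.48, SE 0.12), like Apoo and Cox7b, lie on the X chromosome, which held 9 of the 111 genes (1.42% of its 632 tested genes, against 0.636% of all genes). Libraries with Xist were 2 of 3 in KI and KO, 1 of 3 in KI_WT and 0 of 3 in KO_WT, and the part of sex in these values was not tested beyond a term for Y-linked genes. The ciliary gene Spata7 (-0.39, SE 0.10) and 2 transcripts without an established name, A430106G13Rik (-1.52, SE 0.32) and 2810055G20Rik (-0.75, SE 0.18), were also among the genes with the smallest p. Of these 2810055G20Rik is not one of the 68, since KO 1 lay among its wild types.

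Only 2 genes had KI and KO on opposite sides of all 6 wild-type libraries, in both cases with KI below and KO above. Mllt11 was at 308, 286 and 303 CPM in KI and 354, 375 and 337 in KO, with all wild types between 312 and 331 CPM. 0610040F04Rik was at 1.02, 0.884 and 0.847 CPM in KI and 1.23, 1.44 and 1.38 in KO, with wild types between 1.07 and 1.20. Their differences were -0.24 (SE 0.10) and -0.51 (SE 0.24), and each had an adjusted p of 0.918 in the edgeR fit. In the rest of the 111 genes, wild-type libraries reached into or past a mutant group.

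The difference of effects equals the gap between the mutants minus the gap between the wild types. In the genes of opposite direction the wild types carried a large part of it. The choice of these genes, made on the same libraries, makes gaps of opposite sign likely, so the values are given as a description. In the 43 genes the median gap between KI and KO was 0.20 log2 units and the median gap between KI_WT and KO_WT was -0.22, with a median difference of 0.42. The libraries of KI and KO did not overlap in 34 of the 43, those of KI_WT and KO_WT in 33, and both held in 24. No share over all genes stands beside these counts or those of the 68 below, so they cannot be read as an excess. In 20 of the 43 the wild types differed by more than the mutants did, and the median share of the wild types in the sum of the gaps was 46.9%. In the 68 genes the corresponding medians were -0.26 between the mutants and 0.14 between the wild types, with a median difference of -0.40. The mutants were apart in 62 of the 68 and the wild types in 38. The wild types differed by more in 18, and their median share was 37.9%. Wild-type libraries of the lines differ in animal number range and in regional markers, and the part of either in these gaps was not tested. Between KI_WT and KO_WT themselves edgeR called 0 genes, and 193 higher and 148 lower in KI_WT had an unadjusted p under 0.05.

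**Figure D3:**
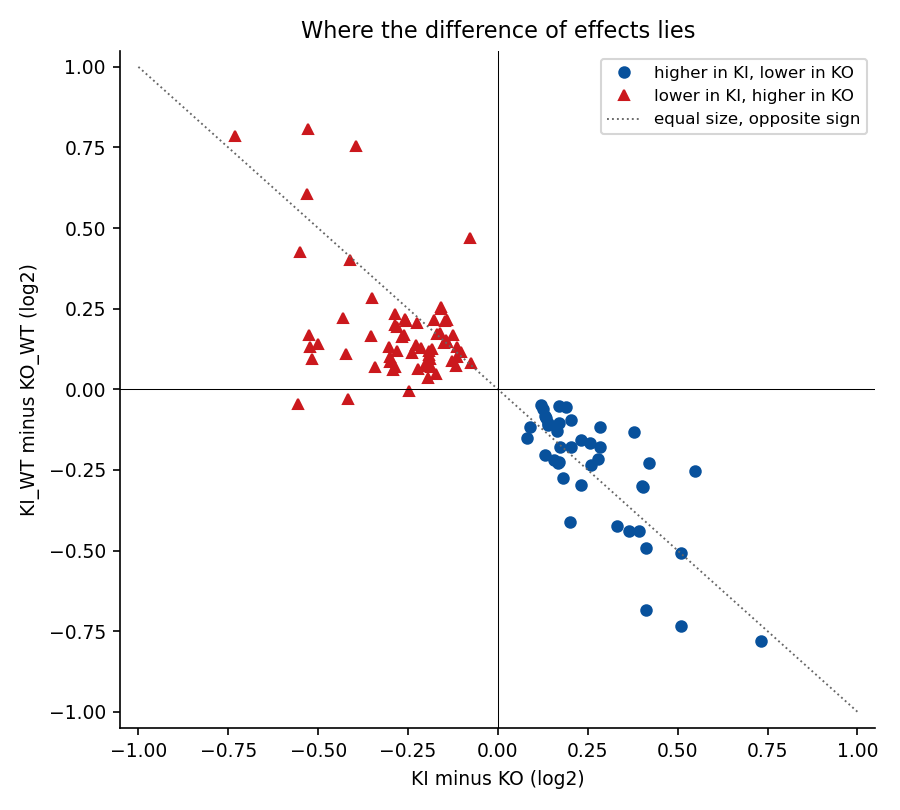
Log2 gap between KI and KO (x axis) against the gap between KI_WT and KO_WT (y axis) for 104 of the 111 genes of opposite direction, those within the axes. Circles are genes higher in KI and lower in KO, triangles those lower in KI and higher in KO, and the dotted line marks gaps of equal size and opposite sign. The circles scatter about that line, and more of the triangles lie on the side where the mutants differ more.

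Markers of glia and vessels were summarised as lists. Over all genes the median difference was -0.01, and 49.0% of genes lay above 0. Oligodendrocyte precursor markers had a median difference of 0.46, made of 0.25 in KI and -0.23 in KO, with all 8 members above 0. Signs were opposite in 7 of the 8, against 44.3% of all genes, and 4 had an unadjusted p under 0.05 and a higher value, against 2.05% of all genes; 0 passed over all genes. Olig1, a transcription factor of the lineage, was at 122, 116 and 110.4 CPM in KI and 95.9, 92.3 and 78.3 in KI_WT, and at 88.7, 95.8 and 109.8 in KO and 115, 112 and 102 in KO_WT. KI was apart from its wild types, while KO 3 lay within the range of KO_WT. Gpr17, a receptor of differentiating precursors, was at 62.6, 58.1 and 66.7 CPM in KI and 58.5, 47.5 and 43.9 in KI_WT, and at 50.5, 39.9 and 61.4 in KO and 68.9, 70.4 and 69.0 in KO_WT. Here KO was apart from its wild types and KI 2 lay just under KI_WT 1. The differences were 0.55 (SE 0.14) for Olig1, 0.78 (SE 0.20) for Gpr17 and 0.64 (SE 0.21) for Pdgfra, the growth factor receptor of these cells. In bulk tissue fewer cells of a type and less RNA per cell cannot be told apart.

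The precursor markers in KI_WT were lowest in KI_WT 3, whose mean over the list was -0.274 log2 units relative to all libraries, and in KO they were lowest in KO 1, at -0.221. KI_WT 3 and KO 1 are also 2 of the libraries highest in olfactory bulb markers. The precursor list's median was 0.39 without the 4 libraries highest in those markers and 0.45 with terms for regional markers. It stayed between 0.37 and 0.56 under all 26 alternatives. The part of other tissue in this difference was not tested. Mature oligodendrocyte markers had a median difference of 0.49 with all 12 members above 0, but 0 of 12 had an unadjusted p under 0.05. The mean over the list was -0.196, -0.701 and 0.297 log2 units in KO 1 to KO 3, and -0.395 in KI_WT 3, the lowest of its group. Without KO 2 the median of the list was 0.25, and without KO 3 it was 0.73.

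Mural cell markers had a median difference of 0.43, all 8 members being above 0 and 3 of 8 at an unadjusted p under 0.05 with a higher value, against 2.05% of all genes. The median was 0.01 in KI and -0.30 in KO. Myh11, smooth muscle myosin, was at 8.41, 7.48 and 10.4 CPM in KO and 14.2, 14.0 and 13.4 in KO_WT, with KO below all KO_WT libraries. It was at 16.2, 13.2 and 10.5 CPM in KI and 12.5, 10.7 and 10.6 in KI_WT, which overlapped, and its difference was 0.89 (SE 0.22). Endothelial markers had a median difference of 0.22 (9 of 10 above 0, 2 of 10 higher at an unadjusted p under 0.05), with -0.18 in KO and 0.04 in KI. The vascular growth factor receptor gene Flt1 lay at -0.41 in KO and -0.02 in KI. Microglial markers had a median of 0.18, with 10 of 12 above 0, opposite signs in 9 and 3 of 12 higher at an unadjusted p under 0.05, and it was 0.11 without KO 3. Csf1r and Cx3cr1, the fractalkine receptor gene, had the larger values (0.46 and 0.43), while the complement genes C1qa, C1qb and C1qc lay at 0.21, 0.04 and 0.15. Astrocyte markers had a median of 0.19 (9 of 12 above 0), 0.10 without KO 2, and 0 of 12 at an unadjusted p under 0.05. These medians kept their sign under all 26 alternatives, and over all genes tested 0 of these markers passed.

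**Figure D4:**
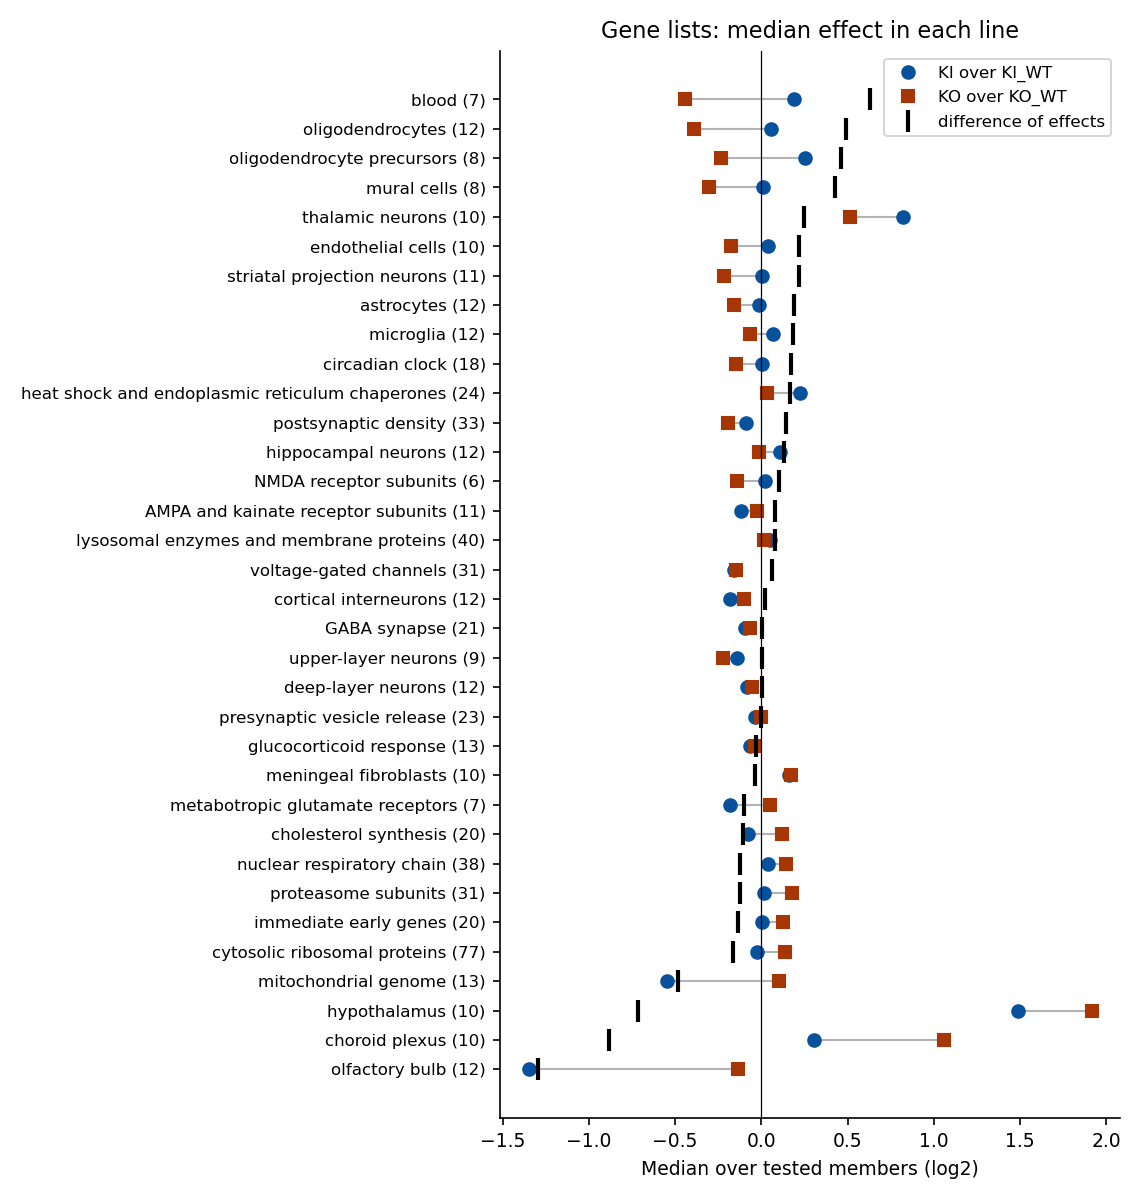
Median log2 effect over the tested members (x axis) of 34 gene lists, with the number of members in brackets. Circles are KI over KI_WT, squares KO over KO_WT, and bars the median difference of effects. Oligodendrocyte lineage and mural markers lie at 0.43 to 0.49 on the difference and the mitochondrial genome at -0.49, and the lists of tissue outside the cortex spread the widest.

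Genes of energy metabolism and protein turnover lay on the other side. Of 38 nuclear genes of the respiratory chain 29 had a difference below 0, with a median of -0.12, and 9 had an unadjusted p under 0.05, all lower (against 3.21% of all genes). Their median was 0.15 in KO, where all 38 were above 0, and 0.04 in KI, so that the difference was one of size more than of direction: signs were opposite in 14 of 38. The 4 members apart in both lines were Atp5g2, Cox7a2, Uqcrc2 and Cycs, against 0.39% of all genes. Of 77 genes of cytosolic ribosomal proteins 70 were below 0 (median -0.16), with opposite signs in 46 and 9, all lower, at an unadjusted p under 0.05. Rpl27, Rpl31 and Rpl39 were apart in both lines. Of 31 proteasome genes 27 were below 0 (median -0.12), 6 of them at an unadjusted p under 0.05 (against 3.21% of all genes), and Psma4 was the 1 apart in both lines. Over all genes tested 0 members of these lists passed.

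The genes of these 3 lists are short, with median lengths of 1959, 1444 and 2169 bp, and the libraries differed in how much RNA of short genes they held. Tested genes were split into 5 classes of equal size by length, and the mean log2 level of the shortest class relative to the longest was highest in KO 1 (0.249), KI_WT 2 (0.139) and KO 2 (0.0929), and lowest in KI_WT 3 (-0.130). The median difference of effects ran from -0.11 in the shortest class to 0.05 in the longest. The 68 genes lower in KI and higher in KO numbered 24 in the shortest class and 6 in the longest, and their median length was 2520 bp, against 3453 bp over all tested genes. The 43 of the other direction numbered 4 and 8, with a median length of 4088 bp. The ribosomal list was highest in KI_WT 2 (0.232) and KO 1 (0.218). With a term for short over long genes in the model its median difference was 0.03 in place of -0.16, while the respiratory chain stood at -0.05 and the proteasome at -0.07. That term was chosen after seeing the data and was computed from the same libraries. The median length of the ribosomal genes lies within the shortest class, which ends at 1769 bp, so the term partly holds their own levels. The part of gene length in the differences of these 3 lists was not tested. Single libraries also moved these medians. The ribosomal median was -0.06 without KI_WT 2 and -0.08 without KO 1, and without both libraries it was 0.03. The respiratory chain was at -0.07 without KI 3 and -0.08 without KO 1, and the proteasome at -0.08 without KI 3, KI_WT 3 or KO 1.

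**Figure D5:**
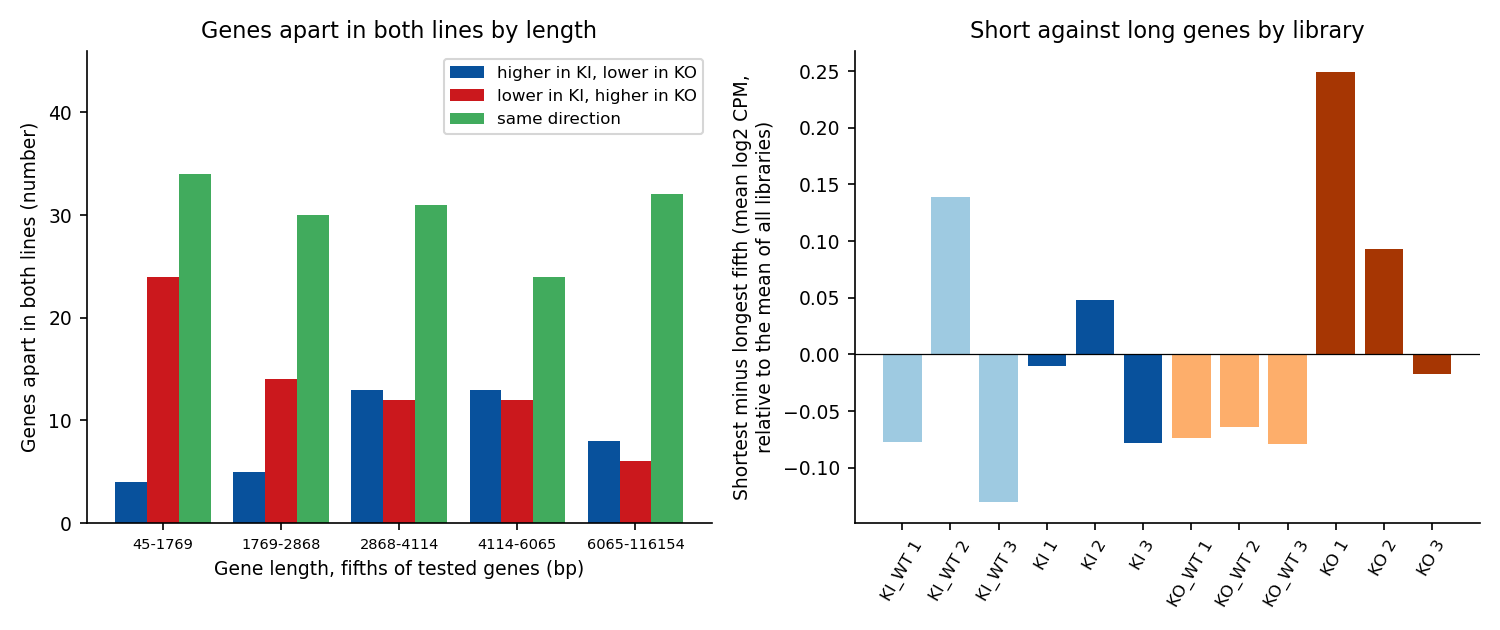
Left, the number of genes apart in both lines (y axis) by 5 classes of gene length in bp (x axis). Right, the mean log2 CPM of the shortest minus the longest class in each library, relative to all libraries. Genes lower in KI and higher in KO fall from 24 to 6 along the classes, and KO 1 stands highest at 0.249.

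Messenger RNAs of the mitochondrial genome had the lowest median of the 17 pathway lists, at -0.49, with 12 of 13 genes below 0. Signs were opposite in 4 of the 13: the median was -0.55 in KI and 0.10 in KO, while mt-Nd1, mt-Nd2, mt-Nd4, mt-Nd5, mt-Co1 and mt-Cytb were below 0 in both lines. mt-Nd4, a subunit of complex I, was at 2718, 1373 and 2802 CPM in KI and 4482, 5107 and 2975 in KI_WT, and at 4461, 4232 and 4184 in KO and 4763, 4366 and 4294 in KO_WT. The KI libraries were the lowest of the 12, and KI_WT 3 lay near them. mt-Nd6, the complex I gene on the other strand of that genome, was at 167, 185 and 210.1 CPM in KI and 285, 288 and 248 in KI_WT. It was at 313, 251 and 281 CPM in KO and 230.4, 226 and 331 in KO_WT, and KI lay below all other libraries. The differences were -0.81 (SE 0.34) and -0.65 (SE 0.21). The scarcer members varied, from -0.61 for mt-Nd3 to -0.04 for mt-Atp6 and 0.14 for mt-Co2. The list was highest in KI_WT 2 (0.441), and without KI_WT 2 its median was -0.30.

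The NMDA receptor genes themselves gave no call. Grin1 had a difference of 0.08 (SE 0.14), with a 95% interval of -0.23 to 0.39, and its group means were 311 CPM in KI, 319 in KI_WT, 307 in KO and 333 in KO_WT. Grin2b, the subunit prominent early in development, was at 541, 376 and 531 CPM in KI and 571, 415 and 381 in KI_WT, and at 253, 382 and 490.1 in KO and 515, 543 and 524 in KO_WT. KO lay below KO_WT with KO 1 the lowest, and KI overlapped its wild types. Its difference was 0.57 (SE 0.31) and that of Grin2a 0.77 (SE 0.61), where KO 1 was again lowest at 3.75 CPM. Without KO 1 the differences were 0.36 for Grin2b and 0.34 for Grin2a, and with the short-gene term 0.24 and 0.07. Without KO 3 that of Grin2a was 1.23, and with a term for animal number range 1.305. Grin2c (0.12, SE 0.12), Grin2d (-0.06, SE 0.21) and Grin3a (0.04, SE 0.15) lay nearer 0. The adjusted p of the 6 measured subunits lay between 0.918 and 0.978 in the edgeR fit.

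At the glutamatergic synapse the postsynaptic density list had a median difference of 0.14, with 27 of 33 members above 0 and 0 at an unadjusted p under 0.05. Both lines were below 0 (-0.09 in KI and -0.19 in KO), and the list was lowest in KO 1 (-0.285). Its median was 0.06 without KO 1, 0.09 without KI 1, 0.08 without KO_WT 1, 0.24 without KO 3 and 0.04 with the short-gene term. The AMPA receptor gene Gria2 was at 990.2, 984 and 974 CPM in KI against 1185, 1196 and 1221 in KI_WT, groups that did not overlap. In KO it was at 1215, 1038 and 1121 CPM against 963, 1147 and 1127 in KO_WT, which overlapped, and the difference was -0.35 (SE 0.13). Grm2, a presynaptic metabotropic receptor gene, had a difference of -0.60 (SE 0.24). Its KI libraries lay below KI_WT, and KO overlapped KO_WT. GABA synapse genes as a list were at 0.01 (11 of 21 above 0), presynaptic release genes at 0.00 (11 of 23) and voltage-gated channels at 0.06 (19 of 31). AMPA and kainate receptor genes lay at 0.08 (7 of 11 above 0), metabotropic receptor genes at -0.10 (2 of 7) and the NMDA receptor subunits at 0.10 (5 of 6).

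Activity-regulated and clock genes were varied. Npas4, an immediate early gene of neuronal activity, was at 16.2, 7.65 and 7.71 CPM in KI and 15.6, 18.7 and 19.9 in KI_WT, and at 17.6, 12.2 and 18.8 in KO and 10.9, 9.47 and 11.9 in KO_WT. KO lay above KO_WT in every library, and KI 1 reached into the range of KI_WT. Its difference was -1.37 (SE 0.37), the largest of the 20 immediate early genes, whose median was -0.14 (12 of 20 below 0) and turned to 0.14 without KO 1. Tef, a clock output factor, was apart in both lines, at 341.2, 338 and 332 CPM in KI, 305, 311 and 286 in KI_WT, 299.8, 249 and 329.5 in KO and 347.2, 340.7 and 333 in KO_WT, with KO 3 close to its wild types. Its difference was 0.38 (SE 0.13). Of 18 clock genes 12 were above 0 (median 0.17) and 3 had an unadjusted p under 0.05: Tef, Cry2 (0.34) and Per2 (0.54), the latter 2 being repressors of the clock. All 3 were higher, against 2.05% of all genes, and 0 passed over all genes. The list's median was 0.04 without KO 2, 0.39 without KO 3 and -0.0032 with the short-gene term. Glucocorticoid response genes had a median of -0.03 (6 of 13 above 0). The time of day of tissue collection was not given in the labels.

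Of 24 heat shock and endoplasmic reticulum chaperones 21 had a difference above 0 (median 0.17), with 0.22 in KI and 0.03 in KO, and 4 had an unadjusted p under 0.05 and a higher value, against 2.05% of all genes. Over all genes tested 0 passed. The median was 0.08 without KI_WT 2, 0.09 without KO 3 or KO_WT 2, 0.10 without KI 1 and 0.26 without KI_WT 3. Hyou1, a chaperone of the endoplasmic reticulum, was at 135, 108 and 100.4 CPM in KI and 87.8, 75.1 and 97.5 in KI_WT, and at 100.8, 108 and 86.8 in KO and 98.1, 104 and 102 in KO_WT. KI was apart from KI_WT, with KI 3 near KI_WT 3, and KO overlapped KO_WT. Calr, calreticulin, had a difference of 0.41 (SE 0.17) in the same way. Cholesterol synthesis genes lay at -0.11, with 15 of 20 below 0 and opposite signs in 10, and at -0.07 without KI_WT 2, -0.17 without KO 3 and -0.01 with the short-gene term. Insig1, which holds the sterol sensor in the endoplasmic reticulum, had a difference of -0.32 (SE 0.11). The 39 lysosomal genes other than Tpp1 had a median of 0.08 (29 above 0), and 1 of them had an unadjusted p under 0.05 and was lower (Asah1, acid ceramidase, at -0.22).

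Markers of tissue outside the cortex had the widest differences and the least stable ones. Olfactory bulb markers had a median difference of -1.29 with 12 of 12 below 0, and this turned to 0.98 without KI_WT 3 and was 0.01 without KO 1. KI_WT 3 was the library in which they were highest (2.49 log2 units over the mean library). The KI_WT libraries ranged from -1.15 to 2.49 and those of KI from -0.470 to 0.674. Choroid plexus markers had a median of -0.88. With single libraries left out it ranged from -2.33 without KO_WT 2 to -0.30 without KI_WT 1. With terms for regional markers it was 0.04, which the fit makes likely, since 1 of those terms is the mean of these same markers. Hypothalamic markers had a median of -0.72, which turned to 0.36 without KO 1. Thalamic markers were above 0 in both lines (0.82 in KI and 0.52 in KO), and their difference was 0.25 with 8 of 10 above 0. With single libraries left out the striatal median (0.22) ranged from -0.09 without KO 3 to 1.04 without KO 1, and the hippocampal median (0.13) from -0.25 without KO_WT 2 to 0.55 without KI_WT 1. Blood markers had a median of 0.63 (7 of 7 above 0), meningeal markers of -0.04 (5 of 10) and the X-inactivation and Y-linked genes of 0.19 (4 of 6). Pituitary markers, of which 3 were tested, had a fitted median of -9.10 that cannot be read as a size. Layer markers of cortical neurons did not separate the lines in the median: upper-layer genes lay at 0.00 (5 of 9 above 0), deep-layer genes at 0.00 (6 of 12) and interneuron genes at 0.02 (6 of 12).

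Genes that lay in the same direction in both lines were taken by the same rule of non-overlap. Slc7a3, a cationic amino acid transporter, was at 14.5, 13.8 and 12.2 CPM in KI and 9.57, 12.012 and 9.83 in KI_WT, and at 13.7, 13.3 and 13.4 in KO and 10.9, 10.3 and 10.6 in KO_WT. All mutant libraries were above all wild types of both lines, and the difference was 0.02 (SE 0.15). Slc17a6, which loads glutamate into vesicles of mainly subcortical neurons and belongs to the thalamic list, had 0.58 in KI and 0.86 in KO. Tpd52l1 had 0.27 and 0.23, and Mlf1 0.71 and 0.62. In the other direction Cadm2, a synaptic adhesion gene, was at 307, 305 and 385 CPM in KI and 424, 415 and 411 in KI_WT, and at 342, 313 and 380.4 in KO and 431, 387 and 425 in KO_WT. Its effects were -0.33 and -0.26, and those of the kinase gene Tlk1 -0.19 and -0.25. Palm2 (-0.43 and -0.55) and Btbd7 (-0.32 and -0.39) completed the genes named by rule. The median effects in this class, 0.23 in KI and 0.19 in KO for the 98 higher in both, stand beside 0.21 and -0.23 for the 43 genes of opposite direction.

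Genes around the altered locus were counted separately. Within 2 Mb on each side of Grin1 92 genes were tested, with a median difference of -0.01, 45 above 0, 6 at an unadjusted p under 0.05 (6 of 92, against 5.26% of all genes) and 1 of opposite direction in both lines (1 of 92, against 0.636%). Promoters were searched on both strands for motifs chosen after the values were seen. The NRF1 consensus, bound by a regulator of nuclear respiratory genes, was present in 9.80% of the 51 genes lower in KI and higher in KO that have a promoter in the table, against 9.90% of tested genes and 5.19% of all genes there. Atp5g2 holds one before its start site, shown here because that gene led this set (GRCm38.p6, chr15:102671070-102671099, minus strand, match in capitals).
Atp5g2 promoter: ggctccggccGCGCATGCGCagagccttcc
The ETS core CCGGAAG was present in 21.6% of those 51 genes and in 23.1% of the 26 genes of the other direction, against 17.0% of tested genes. The E-box palindrome TCACGTGA was present in 0 of the 51 and in 3.85% of the 26, against 1.93% of tested genes, and the M-box in 1.96% and 0%.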

How the data were processed

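RNA of 12 mouse cortices, 3 in each of 4 groups, was analysed from a table of raw read counts per gene deposited by the authors, with 31790970 to 36514024 counts per library. The RPKM values, which the authors deposited as read numbers scaled to gene length and depth, served as alternatives. Length implied by counts over RPKM varied by at most 0.0789% between libraries for 8292 genes. The submitters' processing notes name bcl2fastq 2.17, STAR 2.5.0c, Cufflinks 2.2.1 and GRCm38. The counter, annotation and strand setting are not given in the sources used here, so overlapping and antisense genes may share reads. Per the labels' protocols, RNA had an integrity number above 8.

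Counts were fitted in R 4.3.3 with edgeR 4.0.16 (filterByExpr, TMM, quasi-likelihood, 1 mean per group, 8 residual degrees of freedom). The contrast was KI minus KI_WT, minus KO minus KO_WT, with Benjamini-Hochberg adjustment over 17441 genes at a threshold of 0.05. The fit was checked on simulated data. DESeq2 1.42.0 and limma 3.58.1 were alternatives. Coordinates and exons come from GENCODE M21 (17298 of 17441 genes matched), and promoters from RefSeq on GRCm38.p6. Replicates are separate animals by number, with sex not given in the labels.

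Genes were named by rule: the NMDA receptor subunits, up to 12 genes per direction past the threshold, the 5 with the smallest p per direction if fewer than 10 passed, up to 10 per opposite pattern and 4 per same-direction pattern (mean of at least 1 CPM, with an established symbol), and the member of each list with the smallest p. Other genes were named after their values were seen. The members and lists were chosen with earlier results of these data known. The 36 lists were summarised by counts and medians. Some results are not reported here.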

Additional observations from a re-analysis of the deposited data

Results flagged for a closer look

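Tpp1 differed between the lines by the interaction test itself: the log2 difference of effects was 0.80 (SE 0.09; quasi-likelihood test of edgeR, Benjamini-Hochberg adjusted p = 0.0155), with -0.06 in KI and -0.86 in KO.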

How the results depend on the processing

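Tpp1 kept its direction under all 26 alternatives, 11 planned, 12 leaving out 1 library and 3 chosen after seeing the data. The number of genes past the threshold was 5 with DESeq2. It was 0 with terms for regional markers (Tpp1 adjusted p = 0.281), a term for Y-linked genes (0.0800) and a term for short over long genes (0.0989). It was also 0 with KO 1 and KI_WT 2 left out (0.120) and with the 4 libraries highest in olfactory bulb markers left out (0.254), all with edgeR. With animal numbers over 300 only, where KO_WT 1 was the sole KO_WT library, the Tpp1 difference was 0.75. Fewer libraries or residual degrees of freedom entered each of these fits. Leaving out 1 library gave 0 to 1 genes, with 0 without KI 1, KI 3, KI_WT 1, KI_WT 2, KO 3, KO_WT 2 or KO_WT 3. Genes at an unadjusted p under 0.05 numbered 638 without KI 1 to 1572 without KO 3. Genes of opposite direction numbered 302 without KO 1 and KI_WT 2, and 1037 without the 4 olfactory bulb libraries, where groups of 2 libraries separate more easily, beside 734 and 925 of the same direction, so that the second setting turned the order. On RPKM values, which carry no TMM scaling, they numbered 78, beside 236.

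Of 1583 alternatives for 69 named genes, 23 in 10 genes changed sign, and the cause was not tested. With regional terms Grin1 lay at -0.0259 and Xist at 11.3. Without KO 1 and KI_WT 2 Grin1 lay at -0.0535 and Grin3a at -0.0265. With the short-gene term Grin1 lay at -0.0327 and Hcrt at 0.226. With animal numbers over 300 only, which rests on KO_WT 1 alone for KO_WT, Grin3a lay at -0.0272, Plin4 at -0.481, Fibcd1 at -0.747 and S100a8 at -1.27. Without the olfactory bulb libraries Grin3a lay at -0.0108 and Pcp4 at 0.165, and with a term for animal number range Grin2d lay at 0.00372. Leaving out 1 library gave ranges of -0.00346 to 0.161 for Grin1, -0.160 to 0.0764 for Grin2d, -0.0338 to 0.190 for Grin3a, -0.0455 to 1.40 for Plin4, -0.135 to 0.831 for Fibcd1 and -3.57 to 0.564 for Shisa3. List medians changed sign in 136 of 935 alternatives, over 21 lists. No paired analysis was possible because the labels give animal numbers that no groups share. Scarce genes, such as Casr under 1 CPM, have the least depth.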
